A study of Caenorhabditis elegans with 14 samples.

Results

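The genes examined were 10 genes of the nematode Caenorhabditis elegans whose products build the eggshell or act in the oocyte: *cbd-1*, *chs-1*, *cpg-1*, *cpg-2*, *perm-2*, *perm-4*, *egg-1*, *egg-2*, *oma-1* and *puf-5*. They were chosen by name, as a sign of reproductive output, and all 10 were found among 21982 genes listed in the count table and among 15685 genes tested. Total RNA of whole animals was sequenced in 14 libraries of 4 groups. The groups were *skpo-1* mutants on *E. faecalis* OG1RF (4 libraries), *skpo-1* mutants on *E. coli* OP50 (3), N2 on *E. faecalis* OG1RF (3) and N2 on *E. coli* OP50 (4). N2 is the wild type. The mutant strain, GF89, has the deletion *ok1640* in *skpo-1*, a gene for a heme peroxidase with ShKT domains, and some of its animals are dumpy (short and misshapen). In every group the worms were placed on the bacterium at the last larval stage (L4), stayed there for 16 h and were collected as adults of day 1. *E. faecalis* was grown on brain heart infusion agar with gentamicin, and the medium of the *E. coli* plates at that step is not given in the sources used here, so an effect of the bacterium and one of its plate cannot be told apart. The replicates are described as biological replicates.

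The eggshell of *C. elegans* is laid down around the newly fertilized egg in layers, and most of its parts are made and stored by the oocyte beforehand. The outermost vitelline layer holds CBD-1, PERM-2 and PERM-4, the layer under it is chitin made by the chitin synthase CHS-1, and the layer under that consists of the chondroitin proteoglycans CPG-1 and CPG-2. EGG-1 and EGG-2 are receptor-like proteins of the oocyte membrane that are needed for a sperm to enter. OMA-1 and PUF-5 are RNA-binding proteins that hold back or shape the use of maternal transcripts while the oocyte matures. Levels here are shares of the counts of whole worms, so a lower level of such transcripts need not mean less of them in a worm. It can mean, among other things, fewer oocytes or less RNA in each, and these cannot be told apart.

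The libraries held 15174830 to 36682565 counts, of which the 10 genes took 0.896 to 1.55%. Each gene had 3396 to 141362 counts in every library, so counting error was small beside the spread between replicates, whose biological coefficient of variation was 0.190 (*egg-2*) to 0.363 (*cbd-1*). Levels are CPM, counts per 1000000 counts of a library whose size was scaled by TMM (trimmed mean of M-values). The deleted gene itself averaged 1.83 ± 0.297 CPM in *skpo-1* mutants on *E. faecalis* and 146 ± 46.4 CPM in N2 on *E. faecalis* (SD, n = 4 and 3). On *E. coli* it averaged 2.49 ± 0.156 CPM in *skpo-1* mutants and 297 ± 13.2 CPM in N2 (SD, n = 3 and 4). No library went against its genotype label.

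Replicate 2 of N2 on *E. coli* stood apart from all other libraries. Over 7634 genes with a mean of at least 10 CPM, split by exon length at 1214 and 2089 bases, its median log2 ratio to the other libraries of its group was 0.74 for the shortest genes, 0.01 for the middle class and -0.75 for the longest. The difference between the longest and the shortest class was -1.49 on the log2 scale there, and lay between -0.28 and 0.35 in the other 13 libraries. The eggshell and oocyte genes were low in it: 9 of 10 had the lowest value of their group there. The ratio to the median of the other 3 libraries was 0.256 for *cbd-1* (4221 bases of exons), 0.323 for *cpg-1* (1889 bases), 0.522 for *chs-1* (4293 bases) and 1.03 for *perm-2* (736 bases), the shortest of the 10. The other 6 ratios lay between 0.527 (*puf-5*, 2069 bases) and 0.808 (*egg-2*, 1765 bases), among them that of *perm-4* (1106 bases). The order of the ratios was thus not that of exon length. The fold changes of the 10 genes that use N2 on *E. coli* are therefore given with and without this library. So are their counts called, with an adjusted p below 0.05 and without overlap between libraries. Counts at an unadjusted p below 0.05, the means and SDs of CPM of its group, and the levels per kilobase include it.

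**Figure D1:**
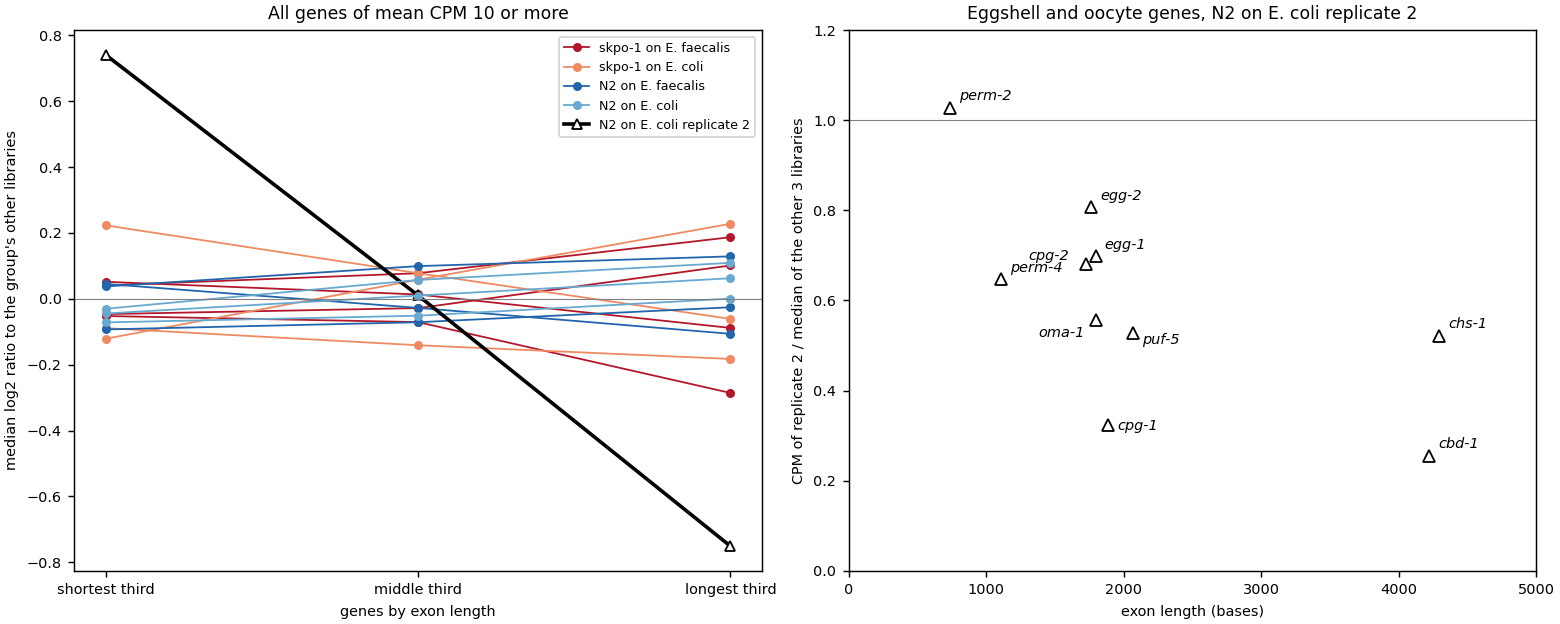
Left, the median log2 ratio of each library to the other libraries of its group (y axis) for genes in 3 classes of exon length (x axis), with 1 line per library; right, exon length in bases (x axis) against the CPM of N2 on *E. coli* replicate 2 over the median of the other 3 libraries (y axis) for the 10 eggshell and oocyte genes, with a line at 1. The black line with open triangles runs from 0.74 to -0.75, and *perm-2* is the only one of the 10 genes above 1.

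A pair of other libraries held the lowest value of their group in all 10 genes. Replicate 4 of *skpo-1* on *E. faecalis* had ratios of 0.472 to 0.929 (median 0.704) to the median of its group's others. Replicate 3 of *skpo-1* on *E. coli* had ratios of 0.637 to 0.836 (median 0.726). Their length differences were -0.23 and -0.09 on the log2 scale, within the range of the other libraries.

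The 10 genes lie apart in the genome (build WBcel235), with 1 exception. *perm-4* (WBGene00016638; chromosome IV, 1121494 to 1125107, minus strand) and *perm-2* (WBGene00016636; IV, 1126790 to 1128865, plus strand) are neighbours that are read away from each other, 1682 bases apart with 0 genes between them. *cbd-1* (WBGene00010351; IV, 11372991 to 11377627) and *oma-1* (WBGene00003864; IV, 8888976 to 8890999) lie on the plus strand of the same chromosome. *chs-1* (WBGene00000496; I, 7554855 to 7559916), *cpg-1* (WBGene00000465; III, 4489359 to 4491392), *egg-1* (WBGene00015083; III, 5728180 to 5730159) and *puf-5* (WBGene00004241; II, 8575541 to 8577787) are on plus strands. *cpg-2* (WBGene00015102; III, 7102092 to 7103990) and *egg-2* (WBGene00019811; III, 7058527 to 7060583) are on the minus strand. All 10 are annotated as protein coding, 8 with 1 transcript and *cpg-1* and *chs-1* with 2. *egg-1* and *egg-2* are paralogs, and the quantification could have shared reads between them, so the level of each is less certain than that of the others. The annotation overlaps *chs-1* with the gene T25G3.3 on the same strand (at most 5862 counts in a library), *perm-2* with C44B12.6 on the opposite strand (at most 27) and *egg-1* with B0244.9 on the opposite strand (at most 71).

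Levels of different genes were compared per kilobase of exons. In every group *cpg-1* and *cpg-2*, the proteoglycan genes, had the highest mean CPM per kilobase, followed by *perm-2*, *perm-4*, *cbd-1*, *puf-5*, *egg-1* and *oma-1*, and the lowest were *egg-2* and *chs-1*. Mean *cpg-2* levels were 1427 CPM per kilobase in *skpo-1* on *E. faecalis*, 1719 in *skpo-1* on *E. coli*, 1249.5 in N2 on *E. faecalis* and 1579 in N2 on *E. coli*. Mean *chs-1* levels in the same groups were 121, 166, 109.6 and 149 CPM per kilobase. Down to *cbd-1*, each gene overlapped with the next in the order between the libraries of a group, in all 4 groups. *egg-1* lay clear of *oma-1* below it in all 4 groups, and from *oma-1* down all neighbours overlapped except *oma-1* and *egg-2* in *skpo-1* on *E. faecalis*.

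Transcripts of all 10 genes were lower on average on *E. faecalis* than on *E. coli* in both genotypes, by less than 2-fold. The fitted folds ran from 0.552 (*cbd-1*) to 0.830 (*cpg-2*) in *skpo-1* mutants and from 0.658 (*egg-1*) to 0.834 (*cpg-1*) in N2. By edgeR's quasi-likelihood test, Benjamini-Hochberg adjusted, 0 of 10 passed the study's call rule (adjusted p below 0.05 and a change of at least 2-fold) in either genotype. At any fold, 0 of 10 had an adjusted p below 0.05 in *skpo-1* mutants and 2 of 10, *egg-1* and *egg-2*, in N2.

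Of the vitelline layer genes, *cbd-1* encodes a chitin-binding protein on which the layer depends. Its levels were 2589, 2689, 3146 and 1271 CPM in *skpo-1* mutants on *E. faecalis*, against 4395, 5054 and 3718 CPM in *skpo-1* mutants on *E. coli*. All 4 libraries on *E. faecalis* were below all 3 on *E. coli*, and replicate 4 was the lowest. In N2 the levels were 3209, 2193 and 2034 CPM on *E. faecalis*, against 4414, 1152, 4510.3 and 4743 CPM on *E. coli*. The N2 groups overlapped only through replicate 2 on *E. coli*, the lowest of all 14 libraries. *cbd-1* had a log2 fold change of -0.86 (SE 0.401, edgeR adjusted p = 0.130) in *skpo-1* mutants and -0.58 (SE 0.409, edgeR adjusted p = 0.271) in N2. Without that library the N2 change was -0.90 (SE 0.280, edgeR adjusted p = 0.0181), the largest of the 10 in size.

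*perm-2* and *perm-4* encode secreted proteins of the same layer. *perm-2* stood at 585, 738, 792 and 517 CPM in *skpo-1* mutants on *E. faecalis*, against 1118, 987 and 670.5 CPM on *E. coli*. In N2 it stood at 656, 881 and 575 CPM on *E. faecalis*, against 889, 914, 1155 and 864 CPM on *E. coli*. Single libraries made the groups overlap in each genotype, replicate 3 on *E. coli* in *skpo-1* mutants and replicate 2 on *E. faecalis* in N2. The *perm-2* log2 fold change was -0.49 (SE 0.222, edgeR adjusted p = 0.118) in *skpo-1* mutants and -0.44 (SE 0.225, edgeR adjusted p = 0.132) in N2. *perm-4* stood at 775, 987, 1066 and 609 CPM in *skpo-1* mutants on *E. faecalis*, against 1539, 1409 and 974 CPM on *E. coli*. In N2 it stood at 960.2, 1005 and 805 CPM on *E. faecalis*, against 1247, 822, 1614 and 1270.1 CPM on *E. coli*. The groups again overlapped, through replicate 3 on *E. coli* in *skpo-1* mutants and replicate 2 on *E. coli* in N2. *perm-4* had the lowest adjusted p of the 10 genes in *skpo-1* mutants, with a log2 fold change of -0.61 (SE 0.249, edgeR adjusted p = 0.0915), and its change in N2 was -0.42 (SE 0.253, edgeR adjusted p = 0.194).

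The chitin synthase gene *chs-1* stood at 554, 518, 618 and 386 CPM in *skpo-1* mutants on *E. faecalis*, against 684, 825 and 631 CPM on *E. coli*. As for *cbd-1*, and for none of the other 8 genes, every *skpo-1* library on *E. faecalis* was below every one on *E. coli*. In N2 *chs-1* stood at 694, 369 and 348 CPM on *E. faecalis*, against 708, 373, 715 and 765 CPM on *E. coli*, with replicate 1 on *E. faecalis* near the *E. coli* libraries and replicate 2 on *E. coli* near the other *E. faecalis* ones. The log2 fold changes were -0.46 (SE 0.278, edgeR adjusted p = 0.235) in *skpo-1* mutants and -0.45 (SE 0.282, edgeR adjusted p = 0.220) in N2.

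*cpg-1* and *cpg-2* encode chondroitin proteoglycans that also bind chitin. *cpg-1* stood at 2318, 2652, 3049 and 1273 CPM in *skpo-1* mutants on *E. faecalis*, against 3570.2, 3726 and 2784 CPM on *E. coli*. In N2 it stood at 2794, 2105 and 1849.7 CPM on *E. faecalis*, against 3204, 1042, 3318 and 3221 CPM on *E. coli*. Replicate 3 on *E. coli* lay below replicate 3 on *E. faecalis* in *skpo-1* mutants, and the N2 libraries on *E. coli* other than replicate 2 were all above the 3 on *E. faecalis*. *cpg-2* stood at 2416, 2579, 3012 and 1825 CPM in *skpo-1* mutants on *E. faecalis*, against 3309.7, 3132 and 2446 CPM on *E. coli*. In N2 it stood at 2575, 1977 and 1907 CPM on *E. faecalis*, against 2861, 1998, 3086 and 2935 CPM on *E. coli*. Replicate 3 on *E. coli* again lay among the *E. faecalis* libraries in *skpo-1* mutants, as did replicate 2 on *E. coli* in N2. The cpg genes had the smallest changes: *cpg-2* in *skpo-1* mutants (-0.27 on the log2 scale, SE 0.224, edgeR adjusted p = 0.391) and *cpg-1* in N2 (-0.26, SE 0.364, edgeR adjusted p = 0.586). The *cpg-1* change in *skpo-1* mutants was -0.53 (SE 0.36, edgeR adjusted p = 0.288), and the *cpg-2* change in N2 was -0.34 (SE 0.226, edgeR adjusted p = 0.247).

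*egg-1* and *egg-2*, for the oocyte surface proteins needed for sperm entry, were the 2 genes that passed the adjusted p threshold in N2. *egg-1* stood at 548, 575, 656 and 453 CPM in *skpo-1* mutants on *E. faecalis*, against 877, 827 and 607 CPM on *E. coli*, and replicate 3 on each bacterium made the groups overlap. In N2 *egg-1* stood at 593, 402 and 412 CPM on *E. faecalis*, against 749, 531, 809 and 759.7 CPM on *E. coli*. The N2 groups overlapped through replicate 1 on *E. faecalis*, which lay above replicate 2 on *E. coli*. The *egg-1* log2 fold change was -0.47 (SE 0.208, edgeR adjusted p = 0.115) in *skpo-1* mutants and -0.60 (SE 0.212, edgeR adjusted p = 0.0364) in N2. *egg-2* stood at 240.0, 231, 258 and 193 CPM in *skpo-1* mutants on *E. faecalis*, against 335, 314 and 237 CPM on *E. coli*. In N2 *egg-2* stood at 244, 152 and 164 CPM on *E. faecalis*, against 296, 239, 288 and 306 CPM on *E. coli*. Its groups overlapped in each genotype, in N2 by less than 5 CPM. The *egg-2* log2 fold change was -0.36 (SE 0.187, edgeR adjusted p = 0.173) in *skpo-1* mutants and -0.60 (SE 0.190, edgeR adjusted p = 0.0243) in N2.

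Of the RNA-binding proteins, OMA-1 is a zinc-finger protein that oocytes need, along with its relative OMA-2, to mature. *oma-1* stood at 287, 305, 346 and 283 CPM in *skpo-1* mutants on *E. faecalis*, against 416, 454 and 313 CPM on *E. coli*. In N2 *oma-1* stood at 326, 269.5 and 246 CPM on *E. faecalis*, against 366, 211, 430.4 and 379 CPM on *E. coli*. Replicate 3 on each bacterium made the *skpo-1* groups overlap, and replicate 2 on *E. coli*, the lowest of all 14 libraries, the N2 groups. The *oma-1* log2 fold change was -0.37 (SE 0.217, edgeR adjusted p = 0.224) in *skpo-1* mutants and -0.30 (SE 0.219, edgeR adjusted p = 0.280) in N2. PUF-5 is a protein of the Pumilio family that represses transcripts in developing oocytes. *puf-5* stood at 925, 957, 1114 and 825 CPM in *skpo-1* mutants on *E. faecalis*, against 1454, 1516 and 1024 CPM on *E. coli*. In N2 *puf-5* stood at 1055, 638 and 668 CPM on *E. faecalis*, against 1272, 670.5, 1512 and 1261 CPM on *E. coli*. Its overlaps came from the same libraries as those of *oma-1*, with replicate 1 on *E. faecalis* the one N2 library on that bacterium above replicate 2 on *E. coli*. Its log2 fold change was -0.48 (SE 0.263, edgeR adjusted p = 0.194) in *skpo-1* mutants and -0.58 (SE 0.268, edgeR adjusted p = 0.0970) in N2.

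**Figure D2:**
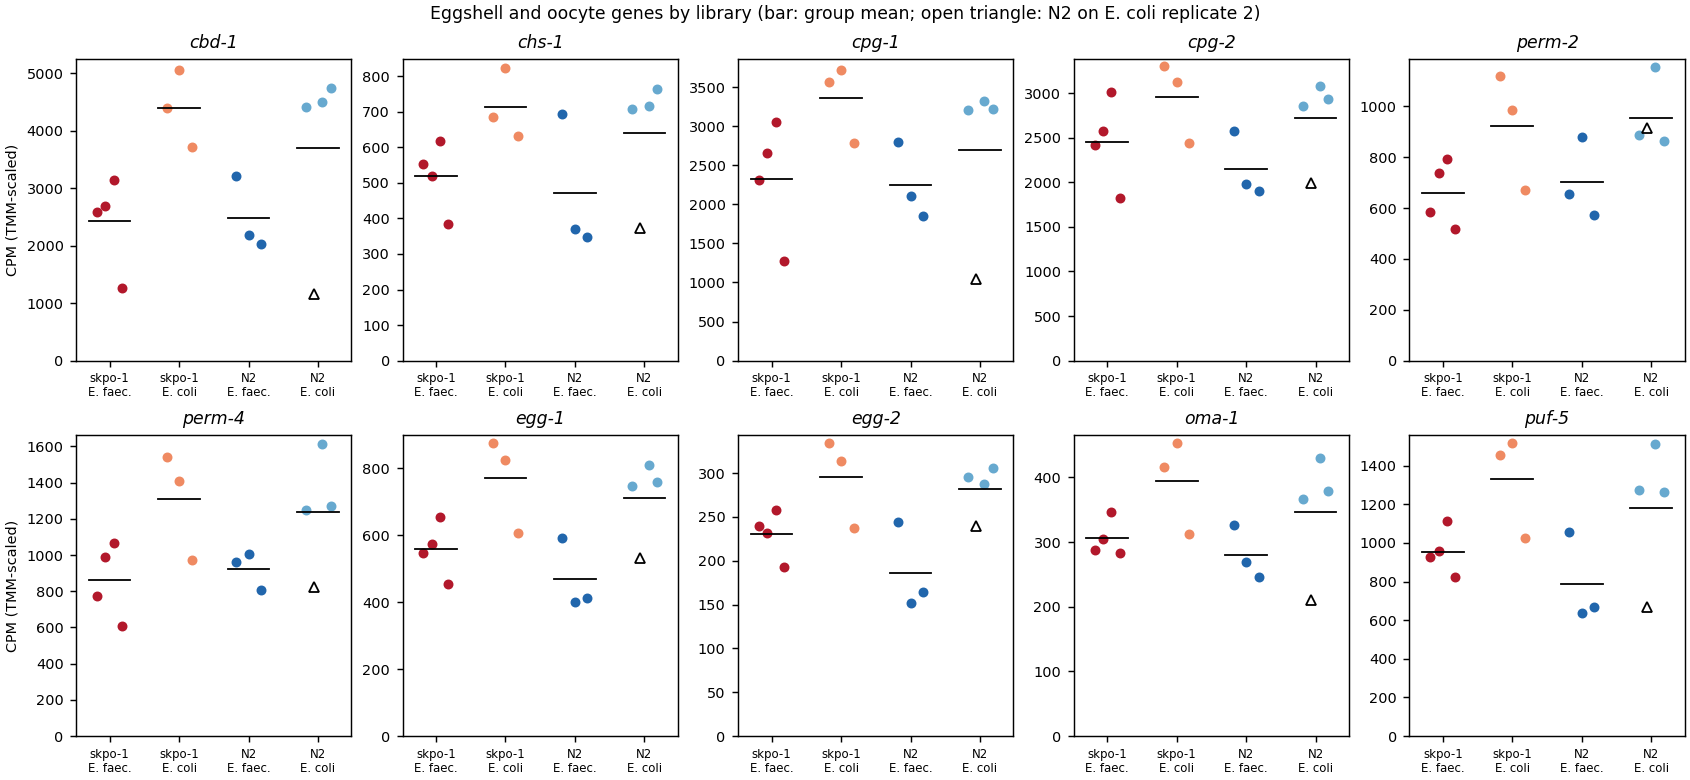
CPM of each of the 10 genes (y axis, linear, from 0) in every library of the 4 groups (x axis), with a bar at the group mean and N2 on *E. coli* replicate 2 as an open triangle. Each mean on *E. faecalis* is below the mean on *E. coli* of the same genotype, and the triangle is the lowest point of its group in every panel but that of *perm-2*.

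Read over the 10 genes, the log2 fold changes on *E. faecalis* ran from -0.86 to -0.27 in *skpo-1* mutants (median -0.47) and from -0.60 to -0.26 in N2 (median -0.44). The medians over all tested genes were 0.12 and 0.03. All 10 were negative in each genotype, against 44.3% of all tested genes in *skpo-1* mutants and 48.8% in N2. The 0 of 10 called stand beside 1.76% of all genes called lower in *skpo-1* mutants and 4.1% in N2. DESeq2's Wald test also called 0 of 10 in each genotype. Of all genes, 6.99% in *skpo-1* mutants and 14.5% in N2 were lower with an adjusted p below 0.05 at any fold, beside the 0 and 2 of these genes. At an unadjusted p below 0.05 in edgeR's test, 4 of 10 were lower in *skpo-1* mutants (all genes, 15.5%) and 3 of 10 in N2 (all genes, 20.2%). Every library on *E. faecalis* was below every one on *E. coli* for 2 of 10 in *skpo-1* mutants (all genes, 20.1%) and for 0 of 10 in N2 (all genes, 14.9%). Of the 10, the share at an unadjusted p below 0.05 was thus above that of all genes in *skpo-1* mutants and near it in N2. The share at an adjusted p below 0.05 was below that of all genes in *skpo-1* mutants and near it in N2. The share without overlap was near or below that of all genes, and the sign was shared by all 10. These genes vary together between libraries, so the 10 signs are not 10 separate observations.

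The N2 counts depended on replicate 2 on *E. coli*. Without it, 7 of 10 genes had an adjusted p below 0.05 in N2 in edgeR's quasi-likelihood test, against 20.7% of all genes that were lower by the same rule. They were *egg-1* (log2 fold change -0.74, adjusted p = 0.00612), *puf-5* (-0.80, adjusted p = 0.00741), *egg-2* (-0.69, adjusted p = 0.00761), *oma-1* (-0.50, adjusted p = 0.0149), *cbd-1* (-0.90, adjusted p = 0.0181), *chs-1* (-0.66, adjusted p = 0.0358) and *perm-4* (-0.59, adjusted p = 0.0371), by the same edgeR test. *cpg-2* (-0.48, edgeR adjusted p = 0.0550), *perm-2* (-0.48, edgeR adjusted p = 0.0890) and *cpg-1* (-0.55, edgeR adjusted p = 0.0971) did not pass it. The 10 values ran from -0.90 to -0.48 (median -0.62), and 0 of 10 were called at 2-fold. Every N2 library on *E. faecalis* was then below all 3 on *E. coli* for 9 of 10 genes, all but *perm-2*, against 25.3% of all genes. In *skpo-1* mutants, whose own libraries were the same, 4 of 10 passed the adjusted p threshold (all genes, 18.3%): *cbd-1*, *perm-4*, *egg-1* and *oma-1*, with a lowest edgeR adjusted p of 0.0185 (*cbd-1*). Without both this library and replicate 4 of *skpo-1* on *E. faecalis*, an alternative chosen after the values had been seen, 1 of 10 passed in *skpo-1* mutants (all genes, 15.7%) and 9 of 10 in N2 (all genes, 22.9%).

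Other choices also moved these counts. When each response was fitted with its own groups only, 3 of 10 passed the adjusted p threshold in *skpo-1* mutants (all genes, 16.7%) and 0 of 10 in N2 (all genes, 5.19%). Without replicate 1 of N2 on *E. faecalis* 4 of 10 passed in N2 (all genes, 16.2%), and 0 of 10 did so without replicate 2 (all genes, 6.44%) or without replicate 3 of that group (all genes, 7.79%). TMM factors were 1.02 to 1.33 on *E. faecalis* and 0.831 to 0.943 on *E. coli*, with 1.13 for replicate 2 of N2. With scaling by library size alone, the median over all genes moved to 0.48 in *skpo-1* mutants and 0.26 in N2, the 10 genes ran from -0.53 to 0.07 (median -0.12) and from -0.36 to 0.03 (median -0.19), and 0 of 10 passed in either genotype (all genes, 1.57% and 4.05%). Relative to the median of all genes, the median of the 10 was -0.59 with TMM and -0.60 with library size in *skpo-1* mutants, and -0.47 and -0.45 in N2. Under library size alone *cpg-2* was positive in *skpo-1* mutants and *cpg-1* in N2.

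**Figure D3:**
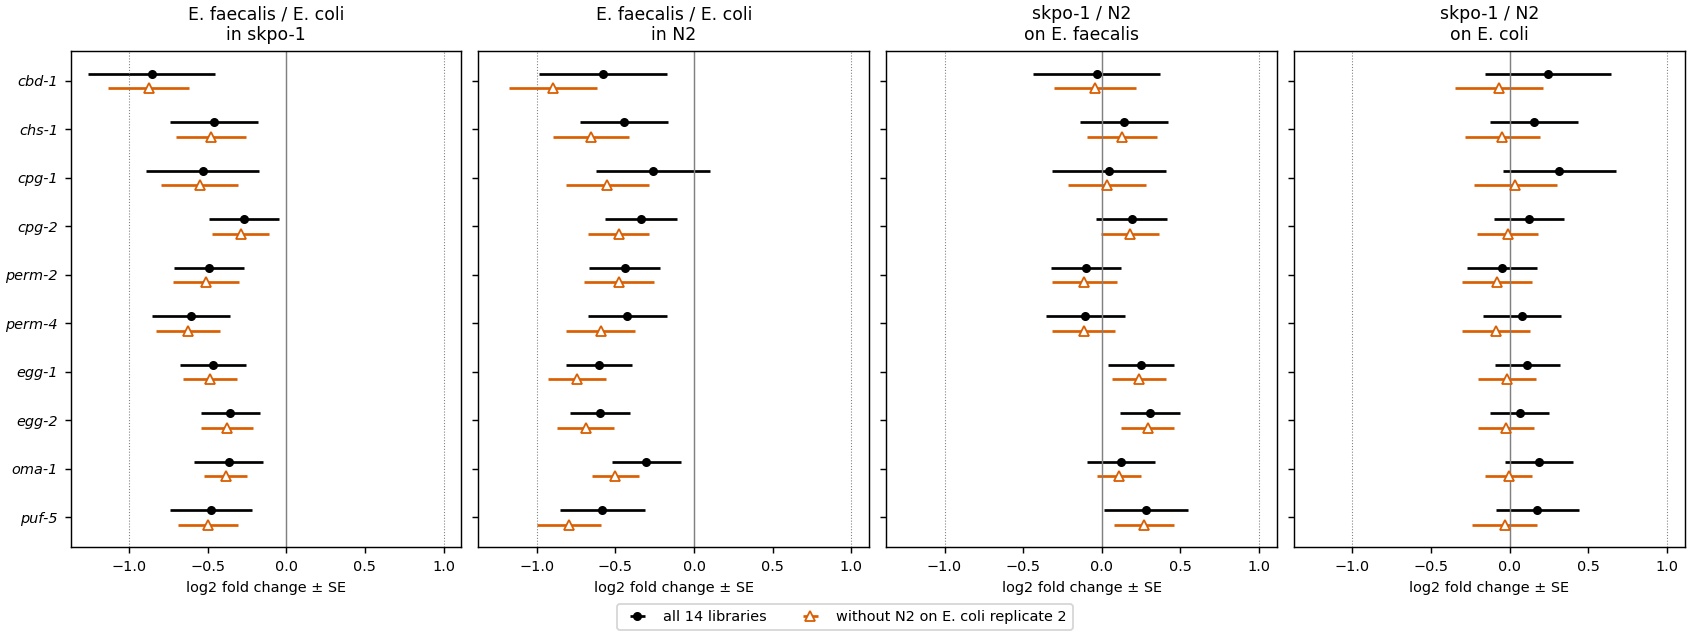
Log2 fold change with its SE (x axis) of each of the 10 genes (y axis) in 4 comparisons, with all 14 libraries (black circles) and without N2 on *E. coli* replicate 2 (open triangles), and dotted lines at a 2-fold change. All values in both panels of *E. faecalis* over *E. coli* lie between 0 and -1, and those of *skpo-1* over N2 with all libraries lie between -0.10 and 0.32.

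The genotypes were compared on each bacterium. In *skpo-1* mutants relative to N2, 0 of 10 were called or passed an unadjusted p of 0.05 on either bacterium in edgeR's quasi-likelihood test, as 0 of 10 were called by DESeq2. On *E. faecalis* the log2 fold changes of *skpo-1* over N2 ran from -0.10 (*perm-4*) to 0.31 (*egg-2*), with a median of 0.13 and 7 of 10 positive, against 47.1% of all genes. With 1 library left out this median ran from 0.00045 (without replicate 3 of N2 on *E. faecalis*, with 5 of 10 negative) to 0.29 (without replicate 1 of that group), and without replicate 4 of *skpo-1* on *E. faecalis* it was 0.25 with 0 of 10 negative. Among all genes 0.108% were called there and 7.74% had an unadjusted p below 0.05. On *E. coli* they ran from -0.05 (*perm-2*) to 0.32 (*cpg-1*), with a median of 0.14 and 9 of 10 positive, against 45.8% of all genes. Among all genes 0.644% were called there and 9.4% had an unadjusted p below 0.05. Without replicate 2 of N2 the *E. coli* values ran from -0.09 to 0.04 with 9 of 10 negative, so the direction on *E. coli* rested on that library.

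The data bound these differences. The 95% intervals of the fold of *skpo-1* over N2 lay within 2-fold either way for all 10 genes on *E. faecalis* and for 8 of 10 on *E. coli*. The exceptions on *E. coli* were *cbd-1* (-0.61 to 1.10 on the log2 scale) and *cpg-1* (-0.45 to 1.09). All 10 intervals on *E. coli* lay within 2-fold without replicate 2 of N2, with -0.67 to 0.53 for *cbd-1* and -0.53 to 0.60 for *cpg-1*. *egg-2* averaged 231 ± 27.1 CPM in *skpo-1* mutants and 187 ± 50.0 CPM in N2 on *E. faecalis* (SD, n = 4 and 3), with a log2 fold change of 0.31 and an interval of -0.10 to 0.71. *cbd-1* averaged 2424 ± 806 CPM in *skpo-1* mutants and 2479 ± 638 CPM in N2 on *E. faecalis*, with an interval of -0.89 to 0.83.

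The difference between the responses (the log2 fold change in *skpo-1* mutants minus that in N2) ran from -0.28 (*cbd-1*) to 0.24 (*egg-2*), with a median of -0.03 and 6 of 10 negative, against 46.9% of all genes. Without replicate 2 of N2 on *E. coli* it ran from -0.03 to 0.31, with a median of 0.15 and 7 of 10 positive. The median was also positive without replicate 4 of *skpo-1* on *E. faecalis* (0.08), without replicate 1 (0.04) or 2 (0.09) of *skpo-1* on *E. coli*, without replicate 1 of N2 on *E. faecalis* (0.14) and with the replicate number as a block (0.06). Without both replicate 2 of N2 on *E. coli* and replicate 4 of *skpo-1* on *E. faecalis* it was 0.27, with 10 of 10 positive. With scaling by library size alone it was 0.06, with 7 of 10 positive. edgeR's quasi-likelihood test called 0 of 10, and 0% of all genes. At an unadjusted p below 0.05 it gave 0 of 10, against 7.75% of all genes, and DESeq2 called 0 of 10. The 95% intervals stayed within 2-fold either way for 8 of 10 genes. Those of *cbd-1* (-1.49 to 0.94) and *cpg-1* (-1.36 to 0.82) reached past 2-fold on the negative side. All 10 lay within 2-fold without replicate 2 of N2 on *E. coli*, with -0.80 to 0.85 for *cbd-1* and -0.78 to 0.78 for *cpg-1*. The comparisons share libraries: each response and each genotype comparison reuses the same 4 groups.

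Genes that act beside these 10 were read from 3 lists. Of 10 further eggshell and permeability barrier genes, 0 were called in either genotype by edgeR or DESeq2. At an unadjusted p below 0.05 in edgeR's test, 4 were lower in *skpo-1* mutants (all genes, 15.5%) and 7 in N2 (all genes, 20.2%). At any fold, 3 were lower with an adjusted p below 0.05 in *skpo-1* mutants (all genes, 6.99%, median of the list -0.35) and 6 in N2 (all genes, 14.5%, median of the list -0.51). The strongest in *skpo-1* mutants were *egg-5* (-0.82, edgeR adjusted p = 0.0239), a phosphatase-like protein of the egg's cortex, *perm-5* (-0.43, edgeR adjusted p = 0.0322) and *perm-1* (-0.63, edgeR adjusted p = 0.0326), both needed for the barrier. In N2 they were *perm-1* (-0.92, edgeR adjusted p = 0.00312), *gna-2* (-0.89, edgeR adjusted p = 0.00522), an enzyme that makes the building block of chitin, and *perm-5* (-0.42, edgeR adjusted p = 0.0207).

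Of 9 genes of chondroitin synthesis, the sqv genes and mig-22, all 9 were negative in each genotype, with medians of -0.35 in *skpo-1* mutants and -0.44 in N2. Of all genes, 44.3% in *skpo-1* mutants and 48.8% in N2 were negative. edgeR and DESeq2 called 0 of 9. At any fold 0 had an adjusted p below 0.05 in *skpo-1* mutants (all genes lower, 6.99%) and 4 did in N2 by edgeR (all genes lower, 14.5%). At an unadjusted p below 0.05, 5 were lower in each genotype (all genes, 15.5% in *skpo-1* mutants and 20.2% in N2). The strongest in N2 were *sqv-4* (-0.73, edgeR adjusted p = 0.00407), which oxidizes UDP-glucose, and the galactosyltransferase genes *sqv-3* (-0.57, edgeR adjusted p = 0.0218) and *sqv-2* (-0.44, edgeR adjusted p = 0.0339). Of 20 further oocyte and maternal genes, most of them for RNA-binding proteins, all 20 were negative in each genotype (all genes, 44.3% and 48.8%). Their medians were -0.58 in *skpo-1* mutants and -0.47 in N2. The genes of a list were read from the same libraries, so their signs are not separate observations. At any fold, 4 in *skpo-1* mutants (all genes, 6.99%) and 5 in N2 (all genes, 14.5%) were lower with an adjusted p below 0.05 in edgeR's test. With an unadjusted p below 0.05, 12 were lower in *skpo-1* mutants (all genes, 15.5%) and 9 in N2 (all genes, 20.2%). By edgeR 0 were called (by DESeq2, 1 lower in *skpo-1* mutants, beside 392 of 15678 genes called lower). *nos-2*, of the nanos family, was lower in both (-0.60, edgeR adjusted p = 0.0143 in *skpo-1* mutants and -0.80, edgeR adjusted p = 0.00192 in N2). So was *spn-4*, for a protein with an RNA-recognition motif (-0.67, edgeR adjusted p = 0.0278 in *skpo-1* mutants and -0.63, edgeR adjusted p = 0.0214 in N2). The next lowest adjusted p was that of the RNA helicase gene *cgh-1* in *skpo-1* mutants (-0.90, edgeR adjusted p = 0.0306) and the zinc-finger gene *pos-1* in N2 (-0.62, edgeR adjusted p = 0.0164). Without replicate 2 of N2 on *E. coli*, the counts at any fold were 4 (eggshell), 4 (chondroitin) and 15 (oocyte and maternal) in *skpo-1* mutants and 7, 6 and 17 in N2. Of all genes, 18.3% in *skpo-1* mutants and 20.7% in N2 were then lower by the same rule. With any 1 library left out they ran from 0 to 4, from 0 to 4 and from 0 to 15 in *skpo-1* mutants and from 2 to 7, from 1 to 6 and from 1 to 17 in N2. By genotype, and for the difference between the responses, 0 genes of these lists were called by edgeR or DESeq2. In edgeR's test 1 gene had an unadjusted p below 0.05, *cpg-3* of the eggshell list. It was higher in *skpo-1* mutants than in N2 on *E. faecalis* (log2 fold change 0.56, edgeR unadjusted p = 0.0361). Of all genes, 7.74% by genotype on *E. faecalis*, 9.4% on *E. coli* and 7.75% for the difference between the responses had an unadjusted p below 0.05.

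Markers of other cells that whole worms hold were read from the same libraries, and their part in the results was not tested. The summed CPM of 15 germline genes was 1662 to 2759.6 in *skpo-1* mutants on *E. faecalis* and 3148 to 3790.3 on *E. coli*. In N2 worms it was 2506 to 2725 on *E. faecalis* and 2180.0 to 3767 on *E. coli*. edgeR gave 2 of 15 in *skpo-1* mutants (all genes lower, 6.99%) and 3 of 15 in N2 (all genes lower, 14.5%) an adjusted p below 0.05, all lower. It called 0, and DESeq2 called 1 lower in *skpo-1* mutants (all genes, 392 of 15678) and 0 in N2 (all genes lower, 767 of 15678). An unadjusted p below 0.05 was found for 5 in *skpo-1* mutants, all lower (all genes lower, 15.5%). In N2 it was found for 6 (all genes lower, 20.2%), of which *syp-1* was higher (log2 fold change 0.39) and the others lower. Without replicate 2 of N2 on *E. coli*, 6 in *skpo-1* mutants (all genes lower, 18.3%) and 7 in N2 (all genes lower, 20.7%) had an adjusted p below 0.05. The summed CPM of the sperm genes was low throughout, at 63.0 to 119.7 in *skpo-1* mutants on *E. faecalis* and 69.2 to 119 on *E. coli*. In N2 worms it was 93.2 to 307 on *E. faecalis* and 39.3 to 64.2 on *E. coli*. In *skpo-1* mutants 0 of 15 tested sperm genes were called or had an unadjusted p below 0.05 (all genes called higher, 10%), and DESeq2 called 0. In N2, 13 of 15 tested sperm genes were called higher (all genes, 19.2%), with a list median of 2.11 on the log2 scale. Without replicate 3 of N2 on *E. faecalis*, which held the 307 CPM, 7 of 14 were called higher (all genes, 2050 of 15589). Without replicate 2 of N2 on *E. coli* 14 of 14 were (all genes, 3572 of 15289). For the difference between the responses, 0 of 15 sperm genes were called by edgeR (all genes, 0%) or by DESeq2 (all genes, 56 of 14765). In edgeR's test 12 of 15 had an unadjusted p below 0.05 (all genes, 7.75%). All 15 values were negative, with a median of -1.92 and a lowest edgeR adjusted p of 0.440.

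Yolk is made in the intestine and taken up by oocytes. The summed CPM of 6 yolk protein genes and 2 intestinal genes was 26261 to 99045 in *skpo-1* mutants on *E. faecalis* and 114787 to 170395 on *E. coli*. In N2 worms it was 26631 to 100634 on *E. faecalis* and 27612 to 155035 on *E. coli*, where 27612 was replicate 2. edgeR called 3 of 8 lower in each genotype (all genes, 1.76% in *skpo-1* mutants and 4.1% in N2). DESeq2 called 4 of 8 lower in each genotype (all genes, 392 of 15678 in *skpo-1* mutants and 767 of 15678 in N2). So did edgeR without replicate 2 (all genes, 365 of 15289 in *skpo-1* mutants and 531 of 15289 in N2). The 3 that edgeR called with all libraries, named here after their values were seen, were all yolk protein genes: *vit-1* (log2 fold change -2.60 in *skpo-1* mutants and -2.29 in N2), *vit-3* (-2.82 and -3.45) and *vit-4* (-2.58 and -3.0). The other yolk protein genes had no edgeR adjusted p below 0.05 in either genotype with all libraries. Their values were -1.42 in *skpo-1* mutants and -1.64 in N2 for *vit-5*, -0.66 and -0.63 for *vit-6*, and -0.17 and 0.08 for *vit-2*. Both intestinal genes had positive values. *ges-1*, an intestinal esterase gene, was higher by 0.60 on the log2 scale in *skpo-1* mutants (adjusted p = 0.0155, edgeR) and by 0.47 in N2 (adjusted p = 0.0235, edgeR). *elt-2*, a gene for an intestinal GATA factor, had 0.51 in *skpo-1* mutants (adjusted p = 0.0602, edgeR) and 0.57 in N2 (adjusted p = 0.0233, edgeR). The summed CPM of 10 genes first transcribed in the embryo was between 11.6 and 25.0 in every library, with *med-1* at 0 counts in both *skpo-1* groups and *med-2* in N2 on *E. coli*. Of 8 tested, edgeR called 0 lower in *skpo-1* mutants (all genes, 1.76%), with 0 at an unadjusted p below 0.05 and 0 called by DESeq2. In N2 edgeR called 3 lower (all genes, 4.1%), with 0 to 4 when 1 library was left out and 0 of 7 without replicate 2 on *E. coli*. The summed CPM of 4 gonadal sheath genes was 101 to 111 in *skpo-1* mutants on *E. faecalis* and 116 to 131 on *E. coli*. In N2 worms it was 93.6 to 118 on *E. faecalis* and 119 to 157 on *E. coli*. DESeq2 and edgeR called 0 of 4 in each genotype. Of all genes, edgeR called 1849 of 15685 in *skpo-1* mutants and 3651 of 15685 in N2, in either direction. At an unadjusted p below 0.05 edgeR gave 1 in *skpo-1* mutants and 3 in N2 (all genes lower, 15.5% and 20.2%). These were *lim-7* in *skpo-1* mutants (log2 fold change 0.53) and, in N2, *lim-7* (0.77), *ceh-18* (0.86) and *inx-8* (-0.51), so that in N2 *lim-7* and *ceh-18* had positive values and *inx-8* a negative one. The summed CPM of 4 body wall muscle genes was 515 to 2373 in *skpo-1* mutants on *E. faecalis* and 3565 to 4802 on *E. coli*. In N2 worms it was 2079.8 to 2694 on *E. faecalis* and 838 to 4304 on *E. coli*, where 838 was again replicate 2. edgeR called 0 of 4 muscle genes in each genotype. At an unadjusted p below 0.05, 3 were lower in *skpo-1* mutants (all genes, 15.5%) and 0 in N2 (all genes, 20.2%). DESeq2 called 3 lower in *skpo-1* mutants (all genes, 392 of 15678). Without replicate 2 of N2 on *E. coli*, edgeR called 3 lower in *skpo-1* mutants (all genes, 365 of 15289) and 1 in N2 (all genes, 531 of 15289).

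**Figure D4:**
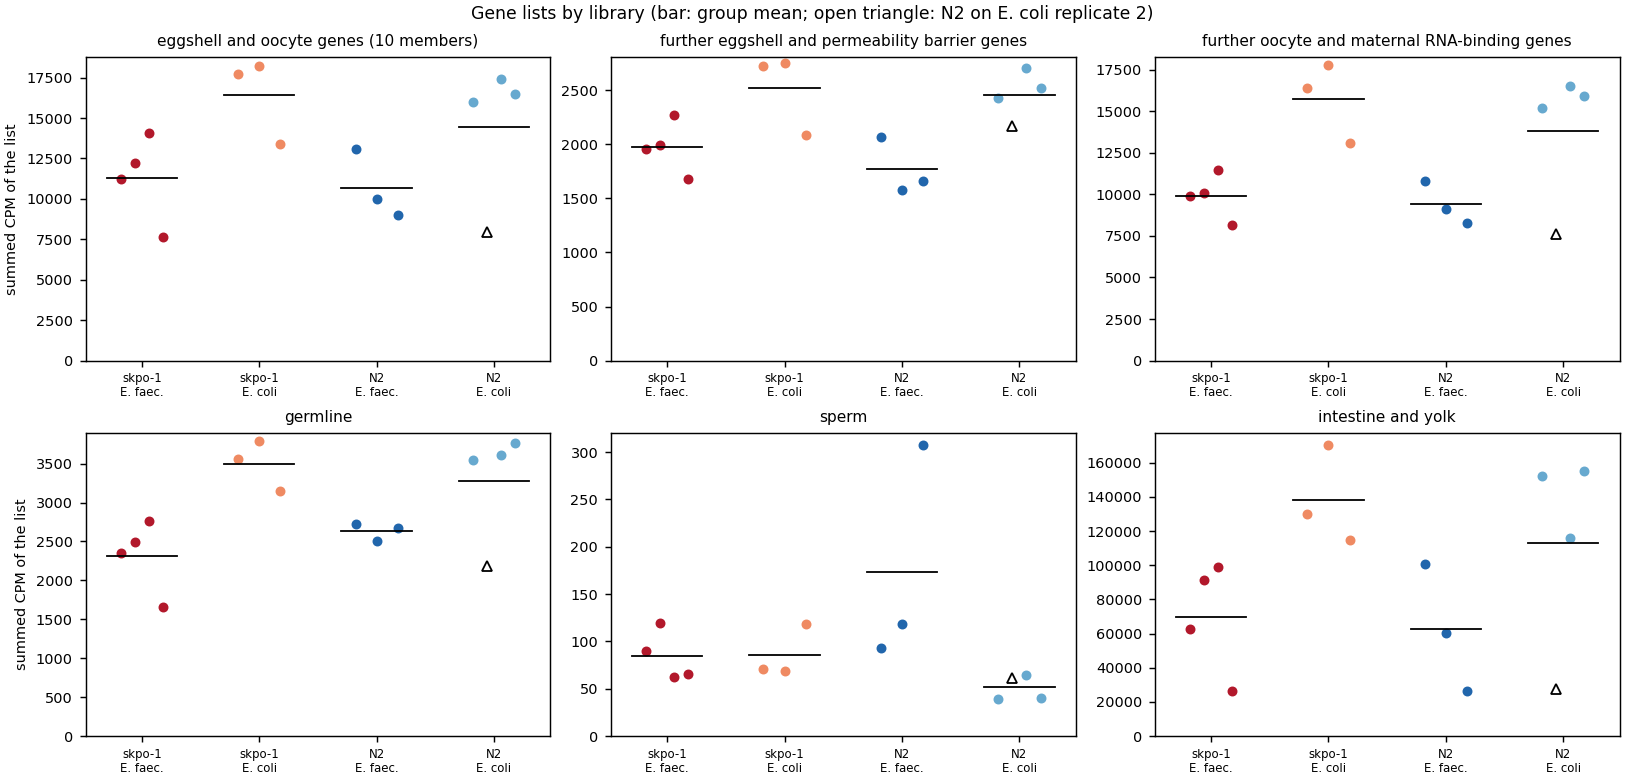
Summed CPM (y axis, linear, from 0) of the 10 eggshell and oocyte genes and of 5 other gene lists in every library of the 4 groups (x axis), with a bar at the group mean and N2 on *E. coli* replicate 2 as an open triangle. The 10 genes together range from 7635 to 14057 CPM in *skpo-1* on *E. faecalis* and from 13405 to 18243 CPM in *skpo-1* on *E. coli*, and the sperm panel has its highest point, 307 CPM, in N2 on *E. faecalis*.

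Over the 14 libraries the genes followed each other. Pearson's r of the log2 CPM of each gene with the mean of the 10 ran from 0.683 (*perm-2*) to 0.973 (*cpg-2*), and each gene is part of that mean. The genes outside the 10 with the highest r were *wapl-1*, for a cohesin-release factor (0.985), *mrp-4*, for a membrane transporter of the ABC family (0.976), W04A8.1 (0.976), *ilcr-2*, for an interleukin-17 receptor subunit (0.975), and *sygl-1*, a gene of germline stem cells (0.975). Without replicate 2 of N2 on *E. coli* these r were 0.983, 0.974, 0.972, 0.970 and 0.978 over 13 libraries. The points share bacterium, genotype and library scaling, so r describes these libraries only.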

How the data were processed

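Total RNA of whole worms was extracted with Trizol and sequenced as read pairs in 14 libraries. Reads were trimmed by the authors (FastQC, Trimmomatic 0.36) and quantified with Salmon 1.2.1 on WBcel235 transcripts, and tximport gave gene-level values. These estimated counts were deposited rounded to whole numbers. The other deposited table is a signal, counts after the authors' DESeq2 normalization (DESeq2 1.26.0, R 3.6.3), and served only as an alternative. Of the deposited columns per sample, 0 were left unused. Whether the library kit kept strand is not given in the sources used here.

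Groups came from the sample titles. Genes were kept by filterByExpr (minimum count 10, minimum total 15), scaled by TMM and tested in 1 fit of all libraries with edgeR 4.0.16 (quasi-likelihood, R 4.3.3), adjusted by Benjamini-Hochberg over 15685 genes. The call rule was that of the study, an adjusted p below 0.05 with a log2 fold change of 1 or more in size. Log2 CPM used a prior count of 2. Names and coordinates come from Ensembl release 115. The members and lists were chosen with earlier results of these data known. All 10 members are named, of each pathway list up to 3 genes with the lowest adjusted p per response, and the 5 genes most alike in pattern. Of 17 sperm genes 15 and of 10 embryo genes 8 were tested. Alternatives were DESeq2 1.42.0 (its scaling and its test), no filter, the compared groups only, a replicate block, limma 3.58.1 on log2 of the normalized counts plus 1, each library left out and, chosen after the data had been seen, 2 libraries left out together and scaling by library size. The scripts were tested on simulated data.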

Additional observations from a re-analysis of the deposited data

Results flagged for a closer look

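In 7 of 38 sets of 4 libraries (genes or gene lists within a group), 1 library lay far from the others by Dixon's criterion at 95% (the gap to the nearest of the others over the whole range). Chance gives about 1 in 20 sets, and sets that share a library are not independent. All 7 sets were in N2 on *E. coli*. In 6 of them the distant library was replicate 2: *cbd-1* at 1152 CPM (others 4414 to 4743), *chs-1* at 373 CPM (708 to 765), *cpg-1* at 1042 CPM (3204 to 3318), and the summed CPM of the further oocyte and maternal RNA-binding genes at 7636 (15165 to 16532), of the germline genes at 2180.0 (3546 to 3767) and of the body wall muscle genes at 838 (4096 to 4304). The remaining set was *perm-2*, where replicate 3 was high at 1155 CPM (others 864 to 914). Replicate 2 is the library in which long genes were low and short ones high, and the part of that in these values was not tested.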

How the results depend on the processing

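Under all 22 other settings 0 of the 10 genes were called in any comparison where the setting could be fitted. The count with an adjusted p below 0.05 at any fold (0 in *skpo-1* mutants, 2 in N2) was 3 in *skpo-1* mutants and 0 in N2 with only the compared groups, 1 in *skpo-1* mutants and 9 in N2 without replicate 2 of N2 on *E. coli* and replicate 4 of *skpo-1* on *E. faecalis*, and 0 in N2 with library size scaling. With 1 library left out it ran from 0 to 4 in *skpo-1* mutants and from 0 to 7 in N2, highest in both without replicate 2 of N2 on *E. coli*. The numbers of the replicates were not taken as pairing the libraries: of 19 same-numbered pairs, 9 had a correlation above 0.1 (-0.53 to 0.25). All 3 pairs were above it only between N2 on *E. faecalis* and *skpo-1* on *E. coli* (0.176 to 0.245), which no comparison sets against each other. With the replicate block the count was 1 in N2. DESeq2 called 1 of the further oocyte genes, 1 germline gene and 3 muscle genes in *skpo-1* mutants, where edgeR called 0. All of these were lower, and DESeq2 called 392 of 15678 genes lower there. Of 220 values per response, 1 changed sign in each. The sign also changed in 15 of 220 values for *skpo-1* over N2 on *E. faecalis*, in 20 of 220 on *E. coli* and in 32 of 210 for the difference between the responses, and the cause was not tested.

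Without replicate 2 of N2 on *E. coli* and replicate 4 of *skpo-1* on *E. faecalis*, signs turned in *skpo-1* over N2 on *E. faecalis*, *cbd-1* (0.17) and *perm-4* (0.018). They turned also in *skpo-1* over N2 on *E. coli*, *cbd-1* (-0.069), *chs-1* (-0.046), *cpg-2* (-0.012), *egg-1* (-0.018), *egg-2* (-0.020), *oma-1* (-0.0051), *perm-4* (-0.087) and *puf-5* (-0.032). They turned also in the difference between the responses, *cbd-1* (0.24), *chs-1* (0.30), *cpg-1* (0.20), *oma-1* (0.15), *perm-2* (0.070) and *perm-4* (0.10). With library size scaling, signs turned in the response of N2, *cpg-1* (0.032). They turned also in the response of *skpo-1* mutants, *cpg-2* (0.072). They turned also in *skpo-1* over N2 on *E. faecalis*, *cbd-1* (0.0076). They turned also in the difference between the responses, *chs-1* (0.066), *oma-1* (0.027) and *perm-2* (0.056). With the replicate block, signs turned in *skpo-1* over N2 on *E. faecalis*, *cbd-1* (0.011). They turned also in the difference between the responses, *chs-1* (0.014) and *perm-2* (0.11). With limma on the authors' normalized counts, signs turned in *skpo-1* over N2 on *E. faecalis*, *cpg-1* (-0.0073). With 1 library left out, values that turned in *skpo-1* over N2 on *E. faecalis* ran from -0.18 to 0.20 for *cbd-1*, from -0.035 to 0.53 for *chs-1*, from -0.11 to 0.25 for *cpg-1*, from -0.22 to 0.096 for *perm-2* and from -0.22 to 0.030 for *perm-4*. With 1 library left out, values that turned in *skpo-1* over N2 on *E. coli* ran from -0.068 to 0.39 for *cbd-1*, from -0.046 to 0.25 for *chs-1*, from -0.012 to 0.25 for *cpg-2*, from -0.018 to 0.26 for *egg-1*, from -0.035 to 0.20 for *egg-2*, from -0.0048 to 0.33 for *oma-1*, from -0.21 to 0.14 for *perm-2*, from -0.087 to 0.25 for *perm-4* and from -0.032 to 0.34 for *puf-5*. With 1 library left out, values that turned in the difference between the responses ran from -0.43 to 0.024 for *cbd-1*, from -0.19 to 0.38 for *chs-1*, from -0.055 to 0.22 for *cpg-2*, from -0.0086 to 0.35 for *egg-1*, from -0.21 to 0.11 for *oma-1*, from -0.24 to 0.14 for *perm-2* and from -0.055 to 0.37 for *puf-5*.

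With 3 or 4 libraries a group, 95% intervals of the responses reached past 2-fold lower for 5 of 10 genes in *skpo-1* mutants and 6 of 10 in N2. Depth was not the limit, since each gene had at least 3396 counts in every library.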
